A study of Mus musculus with 16 samples.

Results

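The genes described here are 10 members of the machinery that takes mammalian cells through the G1 phase of the cell cycle, out of 33072 genes in the count table. They are the D-type cyclins Ccnd1, Ccnd2 and Ccnd3, the E-type cyclins Ccne1 and Ccne2, the kinases Cdk4 and Cdk6, and the inhibitors Cdkn1b, Cdkn2a and Cdkn2b. They were chosen as a list of symbols, and each symbol matched 1 mouse gene of the table. Their RNA was described in the 4 combinations of cell line and treatment.

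RNA was sequenced from cultured 67NR and 4T1 cells, a non-metastatic and a highly metastatic line that both came from a single spontaneous mammary carcinoma of a BALB/c mouse. Each line had been kept in 10% FBS/DMEM and treated for 24 h with 15 µM CIX, a compound that inhibits the phospholipase cPLA2α, or with vehicle alone. Each of the 4 groups held 4 biological replicates, so that 16 samples were compared, and each line stands for 1 metastatic state only. The p-values measure the spread between these cultures of 1 line and not the spread between tumors.

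D-type cyclins bind and activate CDK4 and CDK6, and the active complexes phosphorylate the retinoblastoma protein and its relatives. This releases E2F transcription factors, whose targets include the E-type cyclins, the partners of CDK2 at the entry to S phase. The INK4 proteins encoded by Cdkn2a and Cdkn2b block CDK4 and CDK6, while p27, the product of Cdkn1b, binds cyclin and kinase together, and Cdkn2a also encodes p19Arf, which stabilizes p53 through MDM2. Loss of INK4 inhibitors and excess of cyclin D1 are both well known in breast cancer.

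Cdkn2a was the member whose level differed most between the lines, and its gene yields 2 transcripts with separate promoters and first exons that are spliced to a common second exon in different reading frames. The gene lies on the minus strand of chromosome 4 (GRCm38, chr4:89274471-89294653). The exon junctions are shown because the deposited values were summed per gene and do not separate these products. The first 25 bases in lower case are the end of exon 1, and the 25 capitals are the start of exon 2, which spans chr4:89276645-89276985.
ENSMUST00000060501, exon 1 at chr4:89281986-89282192, the p16Ink4a form: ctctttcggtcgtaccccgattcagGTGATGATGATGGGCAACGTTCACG
ENSMUST00000107131, exon 1 at chr4:89294334-89294653, the p19Arf form: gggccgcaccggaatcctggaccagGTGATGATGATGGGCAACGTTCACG
The capitals were the same in both. Of the words of 31 bases in the 852-base p16Ink4a transcript, 66.7% also occurred in the other one, as did 63.4% of those in the 895-base p19Arf transcript. No word of Cdkn2a or Cdkn2b occurred in a transcript of any other gene.

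The promoters of these transcripts are shown for the same reason, from RefSeq on the GRCm38.p6 assembly, each with 250 bases before and 50 after the start. The capitals mark TTTCCCGC, a form of the E2F site searched on both strands.
Cdkn2a upstream promoter, chr4:89294570-89294869, minus strand: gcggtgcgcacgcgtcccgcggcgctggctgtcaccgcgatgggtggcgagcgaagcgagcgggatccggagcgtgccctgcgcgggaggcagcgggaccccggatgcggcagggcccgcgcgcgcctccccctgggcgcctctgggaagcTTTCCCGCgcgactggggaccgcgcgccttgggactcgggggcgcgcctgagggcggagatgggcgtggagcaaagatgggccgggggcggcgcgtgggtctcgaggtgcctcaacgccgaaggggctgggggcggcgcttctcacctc
Cdkn2a downstream promoter, chr4:89282143-89282442, minus strand: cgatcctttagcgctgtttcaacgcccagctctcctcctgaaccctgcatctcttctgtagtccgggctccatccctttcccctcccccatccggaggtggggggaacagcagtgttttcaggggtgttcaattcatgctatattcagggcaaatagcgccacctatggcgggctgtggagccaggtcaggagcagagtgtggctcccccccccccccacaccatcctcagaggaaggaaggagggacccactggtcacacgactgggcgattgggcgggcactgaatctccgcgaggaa
Those 8 letters were found in 1 of the 9 promoters available for 7 members, and in 1.07% of all 32851 promoters of the same length. A second E2F form, TTTGGCGC, was in none of the 9 and in 0.514% of all, and the AP-1 letters TGAGTCA were in none of them and in 5.20% of all. The forkhead letters GTAAACA occurred in 1 of the 2 Ccnd3 promoters and in 3.65% of all promoters. A match of letters is a description and no measure of binding.

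The total estimated count per sample lay between 21715700 and 29450629, and 3 counts, the smallest level taken as detected, corresponded to 0.102 to 0.138 CPM, which covers counting error only. Levels are given as CPM, the counts scaled to library size with TMM factors, always in the order of the sample numbers of the group, which were 3, 7, 11 and 15 for 4T1 with vehicle and 4, 8, 12 and 16 for 4T1 with CIX. For 67NR they were 1, 5, 9 and 13 with vehicle and 2, 6, 10 and 14 with CIX. Levels of different genes were compared only as TPM, that is, per transcript length. Of 6 epithelial markers, 4 (Cdh1, Epcam, Krt8 and Krt18) passed the filter in 4T1 and none in 67NR, where Krt8 reached 2.30 CPM at most. Of 5 mesenchymal markers, Vim, Cdh2 and Zeb1 were higher in 67NR, Col1a1 overlapped between the vehicle treated lines and Col3a1 passed the filter in neither line. None of the 4 markers of leukocytes, endothelium and fat passed the filter. Over all tested genes, 4T1 sample 4 lay 82.7% of the way from the vehicle mean to the mean of the other CIX samples, against 89.3% to 100.2% for the others, and 67NR sample 2 lay 62.2% of the way, against 85.6% to 93.6%.

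Differences were tested with limma-voom over all genes that passed a filter on TPM, and calls were made where the p-value after Benjamini-Hochberg adjustment was under 0.001. For counts of calls, the share of all genes is given for these limma-voom fits only. Counts from other tools or fits stand without one. The share at an adjusted p is a lower bound for the share at the same unadjusted p. The filter was passed by 8 members in 4T1, where Cdkn2a and Cdkn2b were left out, and by 9 in 67NR, where Cdkn2b was left out. RNA from the whole culture was read, so that fewer cells with a transcript and less of it per cell cannot be told apart.

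The first comparison asked how the members differed between the lines before treatment. In vehicle treated cells, Ccnd1, Ccne2 and Cdkn2a were lower in 4T1 than in 67NR by limma-voom, and it called no member as higher. Cdkn2a failed the filter in 4T1 and was kept for its level in 67NR alone, so that its call is no independent test. The edgeR quasi-likelihood test called 3 members at 0.001 and DESeq2 called 5, among them Ccnd2, which was higher in 4T1 (log2 difference 1.87, DESeq2 adjusted p = 2.10e-05). The limma-voom calls were 3 of the 9 members tested, against 46.3% of all 12605 genes called in this comparison. At an adjusted p below 0.05, 7 of 9 passed, 5 lower and 2 higher in 4T1, where 71.0% of all genes passed. The samples of the lines did not overlap for 6 members, against 65.6% of all genes. The median log2 difference was -0.34 over the members and 0.02 over all genes.

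Ccnd1, which encodes cyclin D1, stood at 575, 276, 180 and 325 CPM in vehicle treated 4T1 cells. In vehicle treated 67NR cells it stood at 2178, 2160, 2048 and 1837 CPM. Every 67NR sample was above every 4T1 sample, and the 4T1 samples differed among themselves by far more than the 67NR samples. The log2 difference was -2.72 (SE 0.28), a 6.61-fold lower level in 4T1 with a limma-voom adjusted p of 1.74e-05, and it remained called without any single sample. Ccnd1 was higher in 67NR than in 4T1 under CIX too, with 1843, 1818, 1832 and 1877 CPM against 914, 315, 265 and 377 CPM.

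Ccnd2, the gene of cyclin D2, was ordered the other way. It had 49.5, 124, 123 and 161 CPM in 4T1 with vehicle and 19.0, 60.6, 27.8 and 17 CPM in 67NR with vehicle. The lowest 4T1 sample lay below the highest 67NR sample, so that the lines overlapped. The log2 difference was 1.96 (SE 0.46) at a limma-voom adjusted p of 0.00371, which passed only the weaker threshold, and without 4T1 sample 3 it was 2.28 at 5.86e-04. Ccnd3, the gene of cyclin D3, did not pass either threshold, with a log2 difference of 0.33 (SE 0.30) and a limma-voom adjusted p of 0.352. Its values were 70.5, 73.5, 114 and 57.2 CPM in 4T1 and 50.9, 49.3, 47.6 and 113 CPM in 67NR, where sample 13 stood apart, and without that sample the log2 difference was 0.63 with an adjusted p of 0.0313.

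On the scale of TPM, the 3 D cyclins summed to 409 ± 73.7 TPM (SD, n = 4) in vehicle treated 4T1 cells and to 1385 ± 111 TPM in 67NR cells. The sums ranged from 334 to 501 TPM in 4T1 and from 1226 to 1476 TPM in 67NR. Ccnd1 made up 53.4 ± 17.2% of the sum in 4T1 and 93.2 ± 2.49% in 67NR. The remainder in 4T1 was Ccnd2 with 24.0 ± 10.8% and Ccnd3 with 22.7 ± 9.94%, so that no D cyclin was near absent there. These shares depend on the transcript length used, and with the longest transcript of each gene Ccnd1 made up 67.3% in 4T1 and 96.1% in 67NR.

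**Figure D1:**
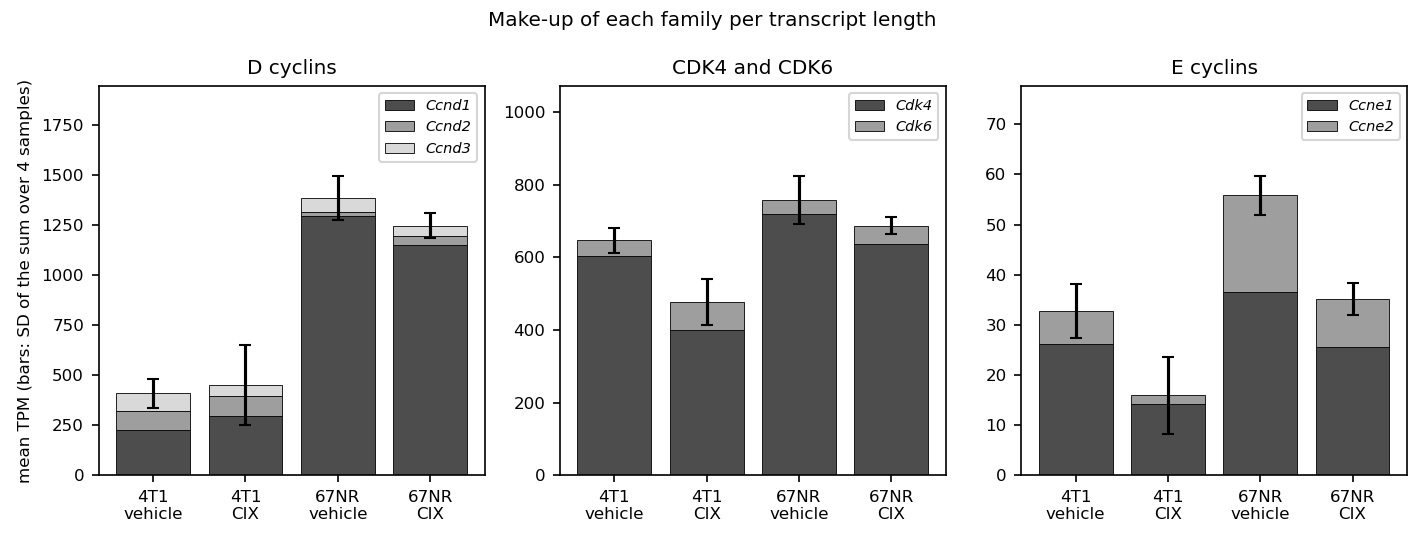
Mean TPM of the D cyclins, of CDK4 and CDK6 and of the E cyclins, stacked by gene, in the 4 groups (n = 4 each), with error bars for the SD of the sum. Ccnd1 filled most of the D cyclin bar in 67NR (93.2% with vehicle) and a smaller part in 4T1 (53.4%), and the E cyclin bar was lower with CIX in both lines.

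Cdk4, the main partner of the D cyclins in many tissues, was read at 519, 498, 511 and 428 CPM in vehicle treated 4T1 cells and at 650, 641, 616 and 558 CPM in 67NR cells. The groups did not overlap, and the log2 difference was -0.34 (SE 0.09) with a limma-voom adjusted p of 0.00702, which passed the weaker threshold only. Cdk6, its close relative, did not separate the lines, at 79.5, 93.3, 116 and 89.6 CPM in 4T1 and 78.7, 94.5, 87.3 and 92.7 CPM in 67NR, with a log2 difference of 0.09 (SE 0.12) and an adjusted p of 0.540. As TPM, Cdk6 made up 6.59 ± 1.02% of the sum of both kinases in 4T1 and 4.97 ± 0.608% in 67NR, and 3.35% and 2.50% with the longest transcripts.

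Both E cyclins were lower in 4T1. Ccne2, the gene of cyclin E2, had 8.56, 7.77, 6.75 and 7.10 CPM in 4T1 with vehicle and 22.2, 25.8, 21 and 25.9 CPM in 67NR with vehicle. The groups lay far apart relative to their spread, and the log2 difference of -1.65 (SE 0.13) was called at a limma-voom adjusted p of 3.69e-06 with all samples and without any single one. Ccne1, the gene of cyclin E1, differed less, with 20.8, 16.1, 14.2 and 17.2 CPM against 26, 27.2, 25.1 and 23.0 CPM. Its groups did not overlap either, with a log2 difference of -0.58 (SE 0.13) and a limma-voom adjusted p of 0.00254. Ccne2 accounted for 20.1 ± 1.38% of E cyclin TPM in 4T1 and for 34.6 ± 3.09% in 67NR, with 22.8% and 38.4% under the longest transcripts.

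Cdkn1b, the gene of p27, was higher in 4T1 at the weaker threshold. It stood at 61.6, 83.9, 104 and 73.6 CPM in 4T1 and at 50.9, 56.7, 48.5 and 59.1 CPM in 67NR. The lowest 4T1 sample was just above the highest 67NR sample, and the log2 difference was 0.56 (SE 0.16) with a limma-voom adjusted p of 0.0104.

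Cdkn2a was read at 37.1, 37.2, 34.2 and 32.0 CPM in vehicle treated 67NR cells, from 938, 837, 864 and 753 counts. In vehicle treated 4T1 cells a single count was found in sample 7 and none in samples 3, 11 and 15, and with CIX a single count was found in sample 4 and none in the other 3. All 8 samples of 4T1 thus stayed under the limit of 3 counts, while all 8 samples of 67NR had 518 counts or more. Summed over the 4 vehicle samples, 3392 counts in 67NR stood against 1 in 4T1, a ratio of 3332 with an exact 95% interval from 598 to 131656 for counting error only. The limma-voom adjusted p of this difference was 1.38e-07, and the fitted fold is not given because it depends on the prior count. As Cdkn2a was kept in the test for its level in 67NR alone, this p is no independent support, and the counts describe the difference. Cdkn2b, the gene of p15Ink4b that lies 12 kb from Cdkn2a, was near the limit of detection everywhere. It had 4, 4, 3 and 3 counts in 67NR with vehicle, 4, 5, 0 and 7 in 67NR with CIX, 1 count in sample 11 of 4T1 with vehicle and none in 4T1 with CIX. The sums of 14 counts in 67NR and 1 count in 4T1 with vehicle gave a ratio of 13.8 with an exact 95% interval from 2.09 to 582 for counting error only.

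The nearest protein-coding genes were read beside Cdkn2a. Mtap, which encodes an enzyme of methionine salvage and lies 93 kb from Cdkn2a, was read at 329 ± 74.7 CPM in 4T1 and at 275 ± 27.2 CPM in 67NR with vehicle (SD, n = 4), a log2 difference of 0.24 (SE 0.15) with a limma-voom adjusted p of 0.185. Dmrta1, 385 kb away on the other side, had 3 counts at most in any vehicle treated 4T1 sample and 14 at most in 67NR, and Ifna1, Ifne and Zfp352 had 2 at most in vehicle treated cells of either line. Cdkn2a and Cdkn2b thus had a gene read in both lines on one side and no well read neighbour on the other. Genomic DNA was not measured in these data.

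**Figure D2:**
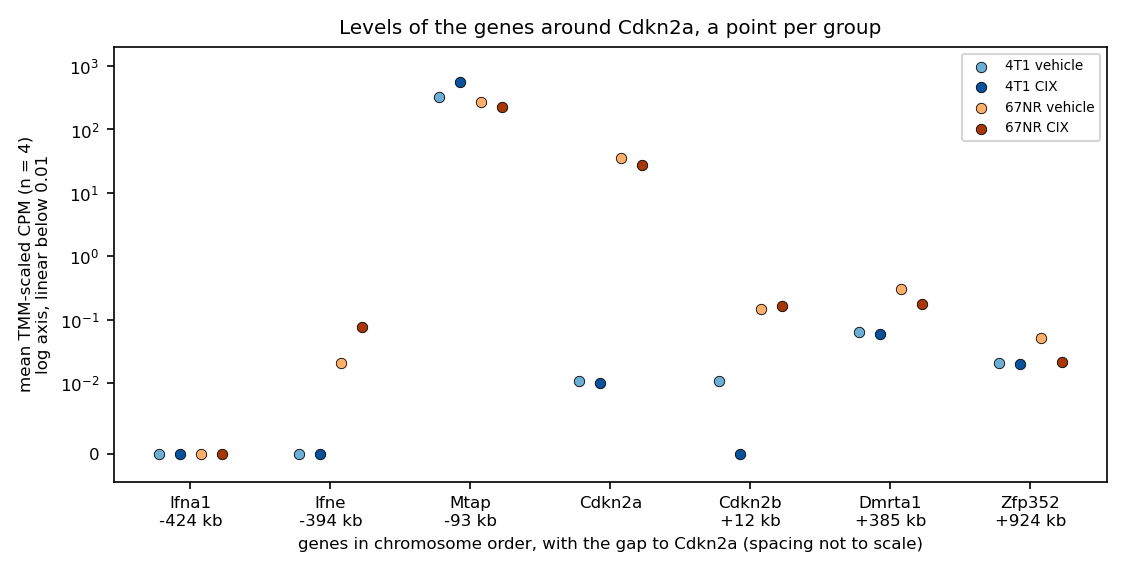
Mean CPM (log axis, linear below 0.01; 4 samples per point) of Cdkn2a and its nearest protein-coding genes in chromosome order, with the gap to Cdkn2a in kb. Mtap was read in all 4 groups, whereas Cdkn2a was read at 35.1 and 27.1 CPM in 67NR and at 0.0109 and 0.0101 CPM in 4T1.

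Neighbours of the other members called between the lines varied too. Beside Ccnd1, Tpcn2, which encodes a lysosomal ion channel, differed by -1.87 (SE 0.15) on the log2 scale at a limma-voom adjusted p of 3.45e-06. Mrgprf, an orphan receptor gene further along, had 66.4 ± 6.42 CPM in 67NR with vehicle and 0.158 ± 0.127 CPM in 4T1. Fgf4, Fgf15 and 1810010D01Rik, the other neighbours within reach, had 4 counts at most in vehicle treated cells. LTO1, which overlaps Ccnd1 by 1771 bases on the opposite strand, had 14.5 ± 2.66 CPM in 4T1 and 25.3 ± 10.9 CPM in 67NR, a log2 difference of -0.73 (SE 0.27). Beside Ccne2, Dpy19l4 was lower in 4T1 by a log2 difference of -1.98 (SE 0.18), Esrp1, an epithelial splicing factor, was read at 28.1 ± 1.60 CPM in 4T1 and 0.0198 ± 0.0396 CPM in 67NR, and Plekhf2 was higher in 4T1 by 0.72 (SE 0.11). Trp53inp1 and Ndufaf6 were not called. The neighbours of Ccnd1 that were tested were thus all lower in 4T1, while those of Ccne2 differed in either direction. Ints8 overlaps Ccne2 by 5622 bases on the opposite strand, and it stood at 31.6 ± 2.87 CPM in 4T1 and 45.8 ± 7.52 CPM in 67NR. The kit marked the strand of the RNA, but whether the quantification used it is not given in the sources used here, so the Ccnd1 and Ccne2 values could hold reads of these partners.

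**Figure D3:**
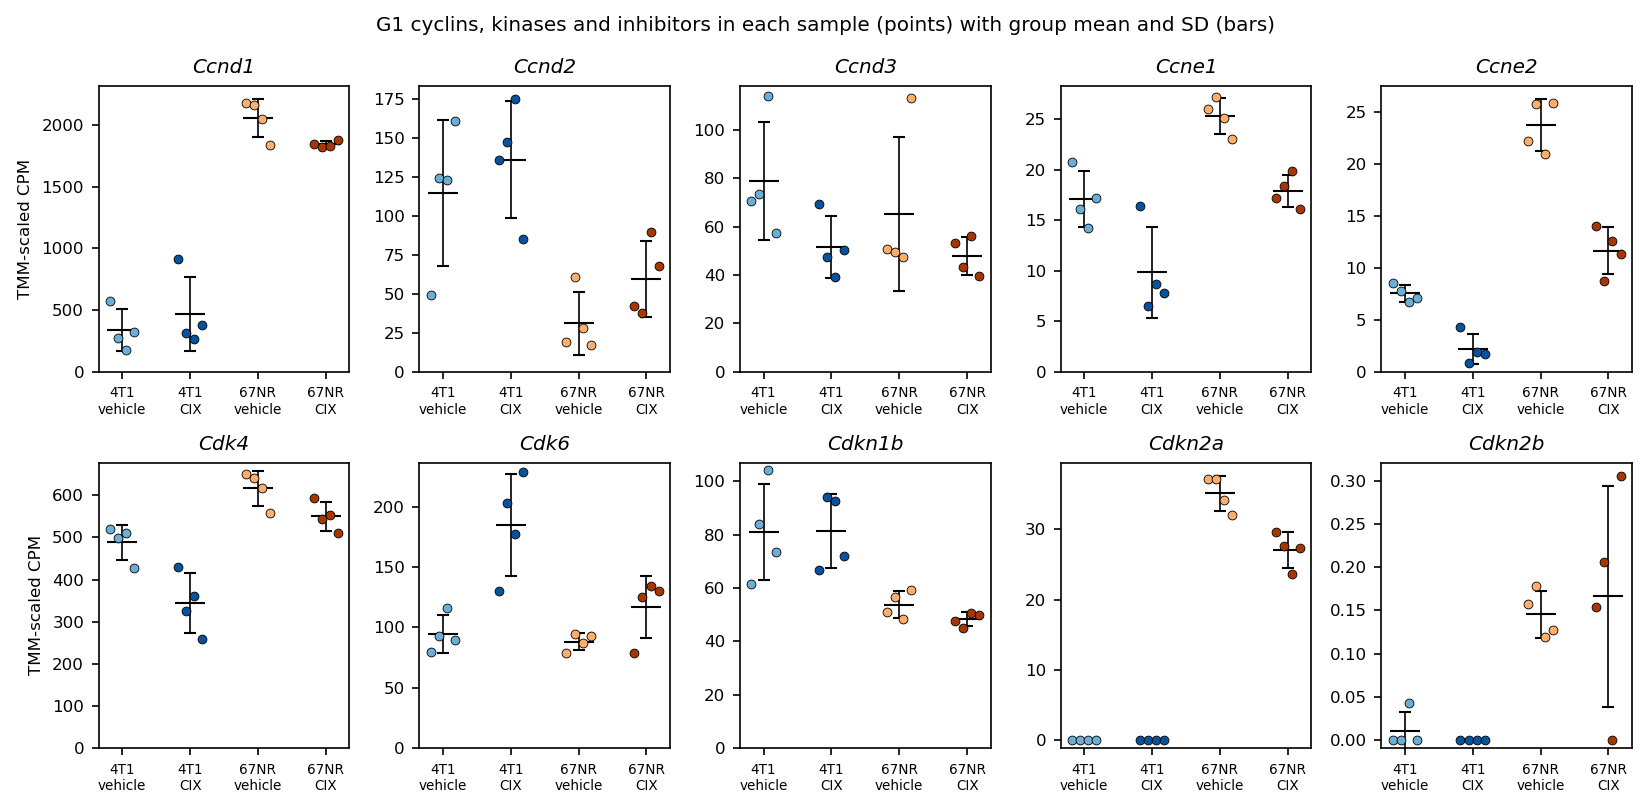
CPM of each member in each sample (points, linear axes from 0) with the group mean and SD (n = 4). Ccnd1, Ccne2 and Cdkn2a sat higher in every 67NR sample than in any 4T1 sample with the same treatment, and Ccne2 was lower with CIX in both lines.

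The second comparison asked what CIX did to the members in 4T1 cells. None of the 8 members tested was called at 0.001, against 9.34% of all 11659 genes, and 4 passed 0.05, where 42.7% of all genes did. Those 4 were Ccne1, Ccne2 and Cdk4, which were lower with CIX, and Cdk6, which was higher. In a common limma-voom fit of all 16 samples, Ccne2 and Cdk6 were called, at adjusted p-values of 1.27e-04 and 6.02e-04. Groups did not overlap for 2 of the 8, against 40.0% of all genes, and the median log2 fold change of the members was -0.27, against -0.01 over all genes. Other tools gave 0 members with the edgeR quasi-likelihood test and 2 with DESeq2 (Ccne2 and Cdk6) at 0.001. Below an unadjusted limma-voom p of 0.05 were 5 members, as were at least 42.7% of all genes.

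Ccne2 moved furthest, from 8.56, 7.77, 6.75 and 7.10 CPM with vehicle to 4.32, 0.858, 1.90 and 1.73 CPM with CIX. Every CIX sample lay below every vehicle sample, and sample 4 lay closest to them. The log2 fold change was -2.01 (SE 0.37), a 4.01-fold lower level with a limma-voom adjusted p of 0.00222. It stayed below 0.05 without any single sample, and without sample 4 it was -2.41 with an adjusted p of 4.55e-04. Ints8, the overlapping gene, went from 31.6 ± 2.87 to 29.6 ± 10.0 CPM over the same samples. At 20 to 107 counts per CIX sample, Ccne2 rested on the fewest reads of the 8 members.

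Ccne1 changed in the same direction, from 20.8, 16.1, 14.2 and 17.2 CPM to 16.4, 6.48, 8.69 and 7.77 CPM. Sample 4 lay within the vehicle range and the other 3 CIX samples well below it. The log2 fold change was -0.90 (SE 0.26) with a limma-voom adjusted p of 0.0212, which became 0.00149 without sample 4 and rose above 0.05 without samples 8, 12 or 16, with 0.0619, 0.0509 and 0.0607. Together the E cyclins summed to 32.7 ± 5.30 TPM with vehicle and 15.9 ± 7.64 TPM with CIX, and the share of Ccne2 went from 20.1 ± 1.38% to 10.5 ± 2.56%, with no overlap between the groups.

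The kinases moved in opposite directions. Cdk6 went from 79.5, 93.3, 116 and 89.6 CPM to 130, 203, 177 and 229 CPM, and every CIX sample was above every vehicle sample. The log2 fold change was 0.93 (SE 0.18), 1.90-fold, with a limma-voom adjusted p of 0.00332, and without sample 4 it was 1.07 with 7.89e-04. Cdk4 went from 519, 498, 511 and 428 CPM to 430, 326, 361 and 259 CPM, where sample 4 just exceeded the lowest vehicle sample. Its log2 fold change was -0.54 (SE 0.15) with a limma-voom adjusted p of 0.0154, and it stayed below 0.05 without any single sample. As TPM, Cdk6 went from 6.59 ± 1.02% to 16.9 ± 6.07% of the sum of both kinases, from 5.27% to 7.64% in the vehicle samples and from 9.86% to 24.3% in the CIX samples, so that Cdk4 remained the larger part in every sample. With the longest transcripts the shares were 3.35% and 9.19%. Tspan31 overlaps Cdk4 by 641 bases on the opposite strand, and it went from 110 ± 17.2 to 83.6 ± 3.84 CPM. Of the words of 31 bases in Cdk4 and Cdk6 transcripts, 2.63% and 2.64% also occurred in other genes.

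No D cyclin passed either threshold in 4T1 by limma-voom with all samples, which were compared as unpaired groups. Ccnd1 was at 575, 276, 180 and 325 CPM with vehicle and at 914, 315, 265 and 377 CPM with CIX. In each group 1 sample lay well above the rest, sample 3 and sample 4, which carry consecutive numbers, and the fitted log2 fold change of 0.38 (SE 0.43, limma-voom adjusted p = 0.494) became -0.02 without sample 4. Read by consecutive sample numbers, which no label describes as pairs, Ccnd1 was higher with CIX in all 4 sets. Ccnd2 had 136, 147, 175 and 85.2 CPM with CIX, against 49.5, 124, 123 and 161 CPM with vehicle, and its log2 fold change of 0.30 (SE 0.35, limma-voom adjusted p = 0.509) became -0.06 without sample 3. Ccnd3 had 69.3, 47.3, 39.1 and 50.5 CPM with CIX, against 70.5, 73.5, 114 and 57.2 CPM with vehicle, a log2 fold change of -0.61 (SE 0.23) with a limma-voom adjusted p of 0.0552. Without sample 4 or sample 15 that p was 0.0228 or 0.0318. With all samples, the adjusted p of Ccnd3 was 0.0238 by DESeq2, 0.0288 by limma on log2(TPM + 1) and 0.0364 by limma-voom without TMM scaling. It was 0.0544 by the edgeR quasi-likelihood test and stayed above 0.05 in the other fits of all samples. Bysl, which overlaps Ccnd3 by 361 bases on the opposite strand, went from 51.3 ± 11.9 to 36.3 ± 3.02 CPM, and 4.32% of the words of 31 bases in Ccnd3 transcripts also occurred in other genes, of which its pseudogene Ccnd3-ps shared the most.

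Of the 8 members tested, Cdkn1b had the smallest change with CIX in 4T1. It had 61.6, 83.9, 104 and 73.6 CPM with vehicle and 66.9, 93.9, 92.6 and 72.0 CPM with CIX, and the groups overlapped almost wholly. Its log2 fold change was 0.00 (SE 0.18), between -0.12 and 0.13 when single samples were left out.

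**Figure D4:**
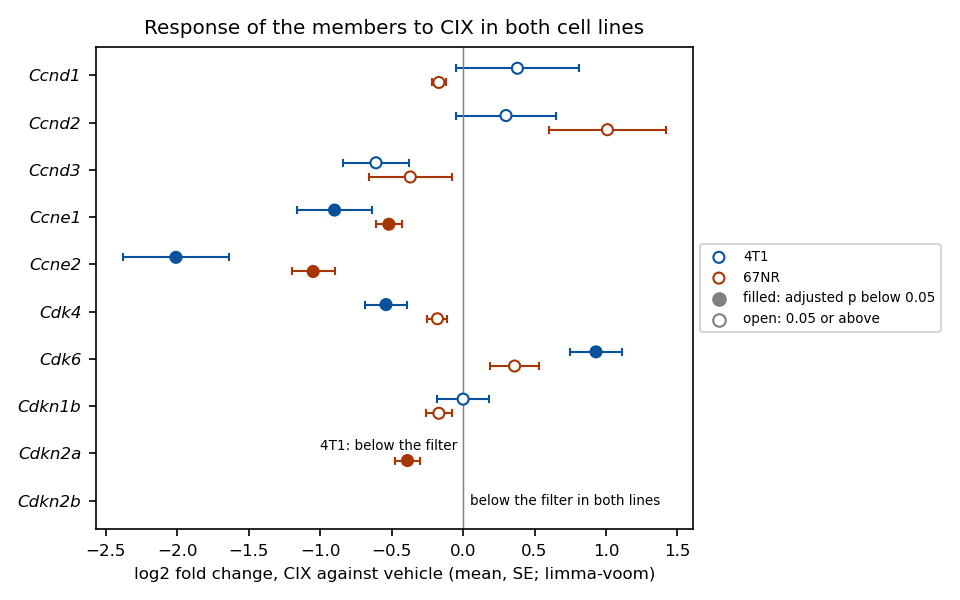
Log2 fold change with SE (limma-voom, 4 samples against 4) of the members with CIX against vehicle in 4T1 and 67NR, with filled points for an adjusted p below 0.05. Ccne2 lay lowest in both lines, at -2.01 in 4T1 and -1.05 in 67NR, and Cdk6 lay at 0.93 and 0.36.

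The third comparison asked the same in 67NR cells. None of the 9 members tested was called at 0.001, where 0.389% of all 11560 genes were, and 3 passed 0.05, against 17.8% of all genes. These were Ccne1, Ccne2 and Cdkn2a, each lower with CIX and each without overlap between the groups, which held for 23.3% of all genes. The median log2 fold change was -0.18 over the members and -0.01 over all genes. The edgeR quasi-likelihood test called 0 members at 0.001 and DESeq2 called 2 (Ccne1 and Ccne2). Below an unadjusted limma-voom p of 0.05 were 6, as were at least 17.8% of all genes.

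Ccne2 went from 22.2, 25.8, 21 and 25.9 CPM to 14.0, 8.75, 12.6 and 11.3 CPM. The log2 fold change was -1.05 (SE 0.15), 2.07-fold lower with a limma-voom adjusted p of 0.0033. Ccne1 went from 26, 27.2, 25.1 and 23.0 CPM to 17.2, 18.4, 19.9 and 16.1 CPM, with a log2 fold change of -0.52 (SE 0.09) and a limma-voom adjusted p of 0.00649. Both E cyclins were therefore lower in every CIX sample of 67NR and stayed below 0.05 without any single sample, although Ccne1 reached only 0.084 in a fit of all 16 samples. Their sum went from 55.8 ± 3.93 to 35.1 ± 3.19 TPM, and the share of Ccne2 from 34.6 ± 3.09% to 26.9 ± 4.30%.

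Cdkn2a went from 37.1, 37.2, 34.2 and 32.0 CPM to 29.7, 27.7, 23.6 and 27.4 CPM. The ranges of the treatments did not meet, and the log2 fold change was -0.39 (SE 0.09) with a limma-voom adjusted p of 0.0166, or 0.0505 without sample 1. Mtap nearby was lower as well, with a log2 fold change of -0.27 (SE 0.08) with a limma-voom adjusted p of 0.0451, whereas in 4T1 it was higher with CIX by 0.76 (SE 0.16, 0.0042) and the interaction was 1.03 (SE 0.19, 8.73e-04).

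The other members of 67NR did not pass 0.05. Ccnd1 stayed close to its level, with a log2 fold change of -0.17 (SE 0.05) and a limma-voom adjusted p of 0.0588, which was 0.0154 without sample 13. Ccnd2 went from 19.0, 60.6, 27.8 and 17 CPM to 41.9, 37.6, 89.7 and 68.1 CPM, and vehicle sample 5 lay among the CIX samples. Its log2 fold change was 1.01 (SE 0.41) with a limma-voom adjusted p of 0.121, and without sample 5 it was 1.38 with 0.0382. Ccnd3 was at 53.0, 43.1, 56.0 and 39.5 CPM with CIX, and its log2 fold change of -0.37 (SE 0.29, limma-voom adjusted p = 0.410) became -0.06 without sample 13. Cdk6 was at 78.8, 125, 134 and 130 CPM with CIX against 78.7, 94.5, 87.3 and 92.7 CPM with vehicle. Sample 2 lay with the vehicle samples and the other 3 above all of them, and the log2 fold change was 0.36 (SE 0.17, limma-voom adjusted p = 0.175) with sample 2 and 0.54 (0.0068) without it. Cdk4 had 593, 543, 553 and 510 CPM with CIX and a log2 fold change of -0.18 (SE 0.07, limma-voom adjusted p = 0.0923). Cdkn1b had 47.6, 44.9, 50.6 and 50 CPM and a log2 fold change of -0.17 (SE 0.09, limma-voom adjusted p = 0.228).

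Whether the response differed between the lines was tested with an interaction term over all 16 samples. No member passed 0.001, against 7.86% of all 12605 genes, and none of the 9 tested passed 0.05, against 29.4% of all genes. Cdkn2a was among the 9 through its level in 67NR alone, and its response in 4T1, at 1 count or none per sample, could not be measured. The edgeR quasi-likelihood test and DESeq2 called 0 members at 0.001 as well. At least 29.4% of all genes, and 3 members, were below an unadjusted limma-voom p of 0.05. Of these 3, Ccne2 had the lowest p, and its log2 fold change was lower in 4T1 than in 67NR by -0.95 (SE 0.38) with a limma-voom adjusted p of 0.071. The other 2 of these 3 were Cdk4 with -0.36 (SE 0.17, limma-voom adjusted p = 0.119) and Cdk6 with 0.57 (SE 0.26, 0.121). For Ccne1 the term was -0.38 (SE 0.27), for Ccnd1 0.55 (SE 0.44) and for Ccnd2 -0.71 (SE 0.59), each smaller than 2 SE, which does not show that the lines responded alike. Without 4T1 sample 4, Ccne1, Ccne2, Cdk4 and Cdk6 passed 0.05, with log2 terms of -0.66, -1.36, -0.49 and 0.72. When the 16 samples were dropped in turn, Ccne2 passed 0.05 only 2 times, and Ccne1, Cdk4 and Cdk6 only 1 time each. The share of all genes passing without sample 4 is not given, so these passes have no background to be read against.

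The other genes of the G1 pathway were read beside the members, as 42 genes in 6 lists, of which 41 were tested in each comparison. In 4T1 with CIX, 6 of 41 were called, 5 higher and 1 lower, against 9.34% of all genes, and at 0.05 there were 13 higher and 6 lower, against 42.7% of all genes. In 67NR with CIX none was called by limma-voom or the edgeR quasi-likelihood test and 9 by DESeq2, with 21 below an unadjusted limma-voom p of 0.05, and at an adjusted 0.05 there were 2 higher and 13 lower, against 17.8% of all genes. The median log2 fold change was 0.16 in 4T1 and -0.10 in 67NR, against -0.01 over all genes in both. The interaction term was called for 8 of 41, against 7.86% of all genes.

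Of the retinoblastoma relatives, Rbl1, the gene of p107, went from 14.1, 11.5, 9.94 and 13.2 CPM to 29.7, 26.8, 24.2 and 35.0 CPM in 4T1. In 67NR it went from 64.2, 61.7, 60 and 53.0 CPM to 39.4, 40.9, 35.1 and 33.4 CPM. It thus rose in every 4T1 sample with CIX and lay lower in every 67NR sample with CIX, with log2 fold changes of 1.22 (SE 0.16, limma-voom adjusted p = 5.09e-04) and -0.70 (SE 0.09, 0.00182). The difference between the lines was 1.92 (SE 0.18) at an adjusted p of 5.22e-06. Rbl2, the gene of p130, rose in 4T1 by 1.58 (SE 0.24, 9.85e-04), from 10.5, 9.38, 13.4 and 24.7 CPM to 37.7, 43.2, 41.8 and 40.4 CPM, and the difference from 67NR was 1.45 (SE 0.27, 8.75e-04). Rb1 itself did not pass in either line.

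Among the E2F and DP factors, Tfdp2, a DNA-binding partner of the E2F proteins, was called in 4T1, from 10.2, 9.43, 8.90 and 9.03 CPM to 19.7, 19.9, 20.7 and 29.7 CPM with CIX. Its log2 fold change was 1.22 (SE 0.17, limma-voom adjusted p = 5.81e-04) and the difference from 67NR was 1.40 (SE 0.18, 4.70e-05). E2f7, a repressor of the family, was called for the difference alone, with 1.20 (SE 0.21, 6.45e-04), where it stood at a log2 fold change of 0.49 in 4T1 and -0.71 in 67NR. At 0.05, 4 of the 10 factors were higher and 1 lower in 4T1, where 42.7% of all genes passed, and 5 were lower and none higher in 67NR, where 17.8% of all genes passed. The contrast of these counts between the lines was not tested.

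Of the 7 genes for CDK2 and the activators of these kinases, 3 were called in 4T1, against 9.34% of all genes. Ccna2, the gene of cyclin A2, which takes over CDK2 in S phase, went from 133, 118, 116 and 133 CPM to 213, 273, 306 and 310 CPM, a log2 fold change of 1.11 (SE 0.13, limma-voom adjusted p = 2.82e-04). In 67NR it went from 218, 215, 208 and 181 CPM to 152, 129, 121 and 108 CPM, a log2 fold change of -0.71 (SE 0.11, 0.00357), and the difference between the lines was 1.82 (SE 0.18, 5.75e-06). Cyclin A2 RNA was therefore higher with CIX in the line where cyclin E RNA was lower, and both were lower in the other line. The CDK-activating kinase split, since Cdk7, its catalytic subunit, fell by 1.09 on the log2 scale in 4T1 (SE 0.12, limma-voom adjusted p = 2.22e-04), and Mnat1, its assembly factor, rose by 1.43 (SE 0.13, 7.90e-05). Ccnh, the third subunit, had a log2 fold change of -0.78 (SE 0.14) with 0.00176. The differences from 67NR were -0.94 (SE 0.14, 1.73e-04) for Cdk7 and 1.25 (SE 0.13, 1.25e-05) for Mnat1.

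The other 3 lists had no call by limma-voom or the edgeR quasi-likelihood test in either line. DESeq2 called 1 of the other CDK inhibitors, 1 turnover gene and 3 upstream regulators in 4T1 and 1 of each list in 67NR, and 1, 3 and 5 genes in 4T1 and 2, 4 and 3 in 67NR were below an unadjusted limma-voom p of 0.05. Cdkn1a, which encodes the inhibitor p21 and is no member here, came near with a log2 fold change of -1.71 (SE 0.36, limma-voom adjusted p = 0.00452) in 4T1 and 0.05 (SE 0.10, 0.773) in 67NR. Cdkn1a and Ccnh are named here after their values were seen. Mdm2, which encodes the ligase that degrades p53, was called for the difference between the lines, with -0.95 (SE 0.17, 8.12e-04). The edgeR quasi-likelihood test did not call it, with an adjusted p of 0.00106, nor Rbl2, with 0.00265 in 4T1 and 0.0044 for the difference between the lines, and it called the other 5 genes in 4T1 and the other 6 differences. Of the 9 genes for the turnover of G1 cyclins and p27, 2 were higher at 0.05 in 4T1, against 42.7% of all genes, and 2 lower in 67NR, against 17.8%. Of the 6 calls in 4T1, the one of Mnat1 held in all 8 fits that left out 1 sample, that of Cdk7 in 4, of Ccna2 in 3, of Tfdp2 in 2 and those of Rbl1 and Rbl2 in 1 each, while all 6 stayed below 0.05 in all 8. Of the 8 differences between the lines, those of E2f7, Mdm2 and Rbl2 held at 0.001 in 4, 2 and 1 of 16 such fits, and the other 5 in all 16.

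**Figure D5:**
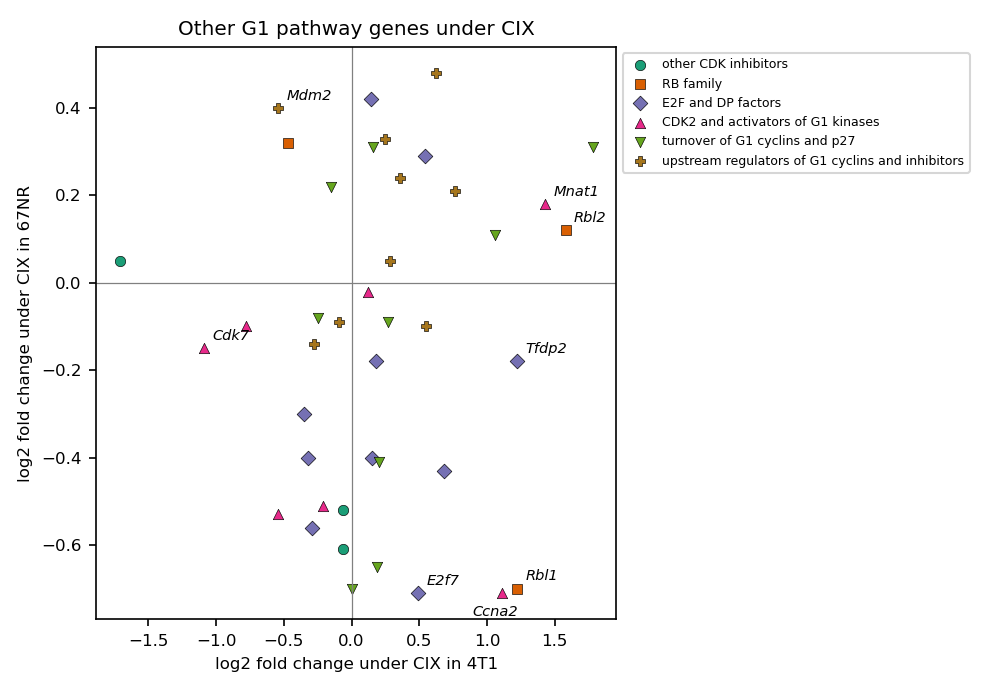
Log2 fold change with CIX in 4T1 (horizontal) and 67NR (vertical) of the 41 other pathway genes, coloured by list, with names for those called in 4T1 or in the interaction. Rbl1 and Ccna2 lay to the right of 0 and below it, at 1.22 and -0.70 for Rbl1.

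Between the vehicle treated lines, 14 of the 41 genes were called, 3 higher and 11 lower in 4T1, against 46.3% of all genes. The 8 with the largest difference were Tfdp2 (-2.55, SE 0.11), Rbl1 (-2.30, SE 0.13), Cdkn1a (-1.68, SE 0.25), Bmi1, a Polycomb repressor of Cdkn2a (-1.40, SE 0.13), E2f8 (-1.23, SE 0.20), E2f7 (-1.20, SE 0.12), Fbxo4, an F-box protein (-1.08, SE 0.16), and Cul3, a ubiquitin ligase scaffold (1.05, SE 0.09), on the log2 scale. Of the 4 epithelial markers tested with CIX in 4T1, Epcam alone was called, with a log2 fold change of -0.78 (SE 0.08), while Cdh1 had -0.29, Krt8 0.43 and Krt18 0.14, and the median of the 4 was -0.07. Vim, the 1 mesenchymal marker tested there, rose by 1.24 (SE 0.08), and in 67NR it had a log2 fold change of 0.58 (SE 0.07). The part of these markers in the differences of the members was not tested.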

How the data were processed

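RNA of 4 groups with 4 samples each was analysed. Transcripts of Ensembl GRCm38 were quantified by the authors with salmon and summed per gene with tximport, and the deposited table holds the resulting estimated counts, not normalized. Salmon 0.12 is named in the submitters' processing notes. The counts were rounded, and samples were grouped by their labels. TPM was approximated from the mean GENCODE M21 transcript length, and genes below 1 TPM in more than 3 of 8 samples of a line were left out. For the comparison of the lines and the interaction, a gene passing in either line was kept. The tests were limma-voom (limma 3.58.1, R 4.3.3) with TMM scaling (edgeR 4.0.16), and were tested on simulated data. Alternatives were the edgeR quasi-likelihood test, DESeq2 1.42.0, other scalings, filters, scales and thresholds, and leaving out each sample.

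The members and lists were chosen with earlier results of these data known. All members were named, and, of the other pathway genes, up to 8 called ones per comparison with the largest change. Neighbouring genes, 3 on each side, were described for members called between the lines or at 3 counts or fewer, and genes overlapping a member for that overlap. Shares with the longest transcript and a block of consecutive samples were added after the data were seen.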

Additional observations from a re-analysis of the deposited data

Results flagged for a closer look

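In 100 groups of 4 samples, from the 25 members and other pathway genes named, 9 samples lay further from the rest than Dixon's 95% limit, which chance passes in about 1 of 20 groups. In 3 of the 9 a single count stood against none in the rest of the group, which passes that limit by construction, and 6 remained without them. Ccnd3 stood at 113 CPM in 67NR vehicle sample 13, against 47.6 to 50.9 CPM in the others. Cdk6 was at 78.8 CPM in 67NR CIX sample 2, against 125 to 134 CPM. Cdkn1a was at 43.4 CPM in 4T1 CIX sample 4, against 17.7 to 19.5 CPM, and Tfdp2 at 29.7 CPM in 4T1 CIX sample 16, against 19.7 to 20.7 CPM. Rb1 was at 48.4 CPM in 4T1 vehicle sample 11, against 12.8 to 16.1 CPM, and Ccnh at 52.8 CPM in 67NR vehicle sample 13, against 27.1 to 31 CPM. The single counts were Cdkn2a at 0.0436 CPM in 4T1 vehicle sample 7 and 0.0404 CPM in 4T1 CIX sample 4, and Cdkn2b at 0.0430 CPM in 4T1 vehicle sample 11.

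The response to CIX differed between the lines by the interaction term for 8 named genes, none of them a member. The log2 fold change in 4T1 minus that in 67NR was 1.92 for Rbl1, 1.82 for Ccna2, 1.45 for Rbl2, 1.40 for Tfdp2, 1.25 for Mnat1, 1.20 for E2f7, -0.94 for Cdk7 and -0.95 for Mdm2.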

How the results depend on the processing

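At an adjusted p below 0.05 in place of 0.001, 4 members were called in 4T1 with CIX, 3 in 67NR with CIX and 7 between the vehicle treated lines. The other pathway genes were 19, 15 and 24, with 15 for the interaction. Of all genes, 42.7%, 17.8% and 71.0% passed, with 29.4% for the interaction. With the DESeq2 Wald test the members were 2, 2 and 5 in place of 0, 0 and 3, and the other pathway genes 13 in 4T1 and 9 in 67NR. With all 16 samples in a common fit, 2 members (Ccne2 and Cdk6) and 11 other genes were called in 4T1. The share of all genes called by DESeq2 or in the common fit is not given. Without a filter, 5 other genes were called for the interaction in place of 8. The causes of these shifts were not tested.

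Leaving out 1 sample at a time gave 0 to 2 members in 4T1, 0 in 67NR, 3 to 5 between the lines and 0 for the interaction. The other pathway genes ranged from 1 to 4, 0 to 0, 12 to 18 and 5 to 7. In 4T1 the 2 members were called without sample 4, and between the lines the 5 were called without sample 3. Among the members, the sign turned for 4 log2 differences, none of them called, namely Ccnd1 in 4T1 with CIX (-0.02 without CIX sample 4 to 0.68), Ccnd2 in 4T1 with CIX (-0.06 without vehicle sample 3 to 0.51), Cdk6 between the lines (-0.05 without 4T1 vehicle sample 11 to 0.13) and the Cdkn2a interaction (-0.13 without 4T1 CIX sample 4 to 0.70), which in 4T1 rests on single counts and measures no response. Cdkn1b in 4T1, at 0.00, ranged from -0.12 to 0.13. The 3 members called between the lines were called under every alternative, where Cdkn2a was kept for its level in 67NR alone. The sample numbers run in 4 consecutive sets with 1 sample of each group, which no label describes as pairs. Vehicle and CIX samples of a set deviated from their group means with correlations across genes of 0.05 to 0.41 in 4T1 and -0.05 to 0.10 in 67NR, and not every sample correlated best with its own set. With the set as a replicate block, chosen after seeing the data, the members called were 0, 0, 3 and 0 and the other pathway genes 5, 0, 11 and 5. At 0.05 the limma-voom adjusted p was then passed by Ccnd1 in 4T1 with CIX (0.40, adjusted p = 0.0134) and by the interaction of Cdk4 (-0.36, 0.0239) and Cdk6 (0.57, 0.0238). Depth limits Cdkn2a and Cdkn2b in 4T1, at 1 count or none per sample, and Cdkn2b in 67NR, at 0 to 7 counts.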
